A study of Canis lupus familiaris with 12 samples.

Results

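A group of 10 genes of the actin machinery was followed through masitinib treatment of a canine mast cell tumour line. They were 4 subunits of the Arp2/3 complex (ACTR2, ACTR3, ARPC2 and ARPC5), its activator WAS, the capping and severing proteins CAPG and GSN, the turnover factors CFL1 and CORO1A, and the adhesion linker PARVB. The members were chosen by name, as the probe sets whose gene symbol is 1 of these 10 symbols. Symbols were those of the platform annotation, updated through Entrez identifiers where these gave a name. All 10 were found, with 20 of the 42924 tested probe sets, and they are 10 of the 15115 genes that carried a single symbol. Where a gene had several probe sets, the one that was brightest on average across the arrays stood for the gene and the others were set beside it.

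The cells were C2, an established line from a dog mast cell tumour whose KIT receptor carries a tandem duplication in its juxtamembrane part and signals without ligand. Masitinib is an inhibitor of KIT and related tyrosine kinases. Total RNA was hybridised to 12 Affymetrix Canine Genome 2.0 arrays, 3 for each of 4 groups: C2 cells before treatment (0 h), and C2 cells kept for 12, 24 and 72 h with 100 nM masitinib mesylate. Arrays of untreated cells at the later times were not analysed here, so the drug and the time in culture cannot be told apart. All groups come from 1 line, and the p-values below rest on the spread between the 3 samples of a time, which may be in part technical. The fit pools this spread over the 4 times and draws it towards that of all tested probe sets.

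Actin filaments push and shape the cell membrane. The Arp2/3 complex, in which ACTR2 and ACTR3 are the actin-related core, starts new filaments as branches on existing ones once a factor such as WAS has switched it on. Capping proteins stop growth at the fast-growing end, gelsolin also cuts filaments when calcium rises, cofilin takes old filaments apart, and coronins act where branches form and are dismantled. Parvins tie integrin-linked kinase at adhesion sites to actin. In mast cells the actin cortex is remodelled during adhesion, migration and granule release. WAS and CORO1A are best known from blood cells, in which their loss causes immune deficiency.

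The label of the line was checked on the same arrays. Of 11 mast cell markers 10 were measured, and none of the 10 lay among the dimmest 40% of probe sets, while the 4 fibroblast genes all did. Of the 31 measured markers of 8 other cell types, 17 were also brighter than the dimmest 40%, among them 4 of 5 for macrophages and 3 of 4 each for T cells and endothelium. By definition most tested probe sets lie above this cut, so a marker above it need not be expressed. Some of the 17, such as CSF1R (5.47 at 0 h), MRC1 (5.68) and VWF (5.74), still lay below the median of all tested probe sets. Others, such as KDR (9.24) and EPCAM (8.72), lay well above it. The mean level of the 10 mast cell markers was 12.51 to 12.72 on the 72 h arrays and 11.80 to 11.89 on the 0 h arrays. Of the same 31 markers, 5 rose and 3 fell at 72 h. DUSP6, which ERK signalling induces, fell at all 3 times (log2 change -4.60, -4.29 and -4.27, SE 0.084). The array medians lay between 5.89 and 5.95, no 2 arrays held identical values, and clustering into 4 clusters returned the 4 times. The poly-A controls, bacterial RNAs that the labelling kit adds to the sample, read higher than at 0 h by 0.29, 0.60 and 0.47 on the log2 scale at 12, 24 and 72 h. Scaling the arrays to these controls shifted the median change of all genes to -0.28, -0.57 and -0.45, so every change below is relative to the bulk of the transcripts.

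A gene was called when its adjusted p was under 0.001 and its change was more than 1.5-fold (limma, with Benjamini-Hochberg adjustment across the tested probe sets). By this rule CAPG, GSN and PARVB rose at 12, 24 and 72 h, and CORO1A fell at 72 h. ACTR2, ACTR3, ARPC2, ARPC5, WAS and CFL1 passed it at no time. This made 3 rises at each time, and 0, 0 and 1 falls. Among all genes the rises made up 4.26%, 8.01% and 8.73% and the falls 6.30%, 10.0% and 11.0% at the same times. The treated arrays and the 0 h arrays did not overlap in 9, 7 and 6 of the 10 genes at 12, 24 and 72 h, beside 45.0%, 53.0% and 52.7% of all genes. The median change of the 10 genes was 0.22, 0.17 and 0.10, and that of all genes 0.01, 0.03 and 0.02.

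**Figure D1:**
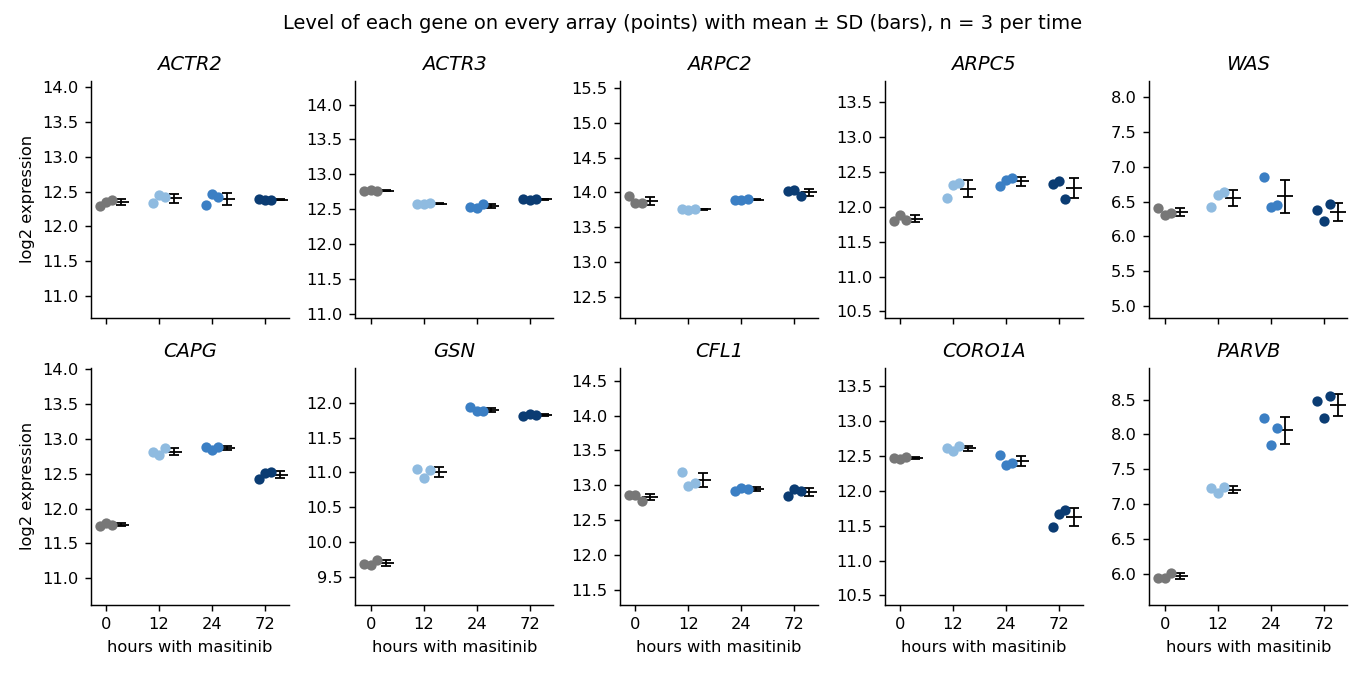
Level of the 10 genes (log2 expression of the brightest probe set, vertical axis; axes differ in position but span the same length in each panel) against hours with masitinib (horizontal axis, the 4 times evenly spaced); each point is 1 array and the bars are the mean ± SD of the 3 arrays of a time. GSN stands at 11.80 to 11.84 at 72 h, against 9.68 to 9.74 at 0 h, and PARVB is higher at each later time. CAPG is highest at 12 and 24 h, and CORO1A is lowest at 72 h. The panels of ACTR2, ACTR3 and ARPC2 are nearly flat, while ARPC5 is higher on all treated arrays than at 0 h.

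ACTR2, the smaller of the actin-like subunits of Arp2/3, stayed level. Its brightest probe set (Cfa.3302.2.S1_at) read 12.30, 12.35 and 12.38 at 0 h, 12.33, 12.45 and 12.42 at 12 h, 12.30, 12.46 and 12.42 at 24 h, and 12.40, 12.38 and 12.38 at 72 h. The arrays of the 4 times overlapped throughout. The change at 72 h against 0 h was 0.04 (SE 0.061, adjusted p = 0.65), with a 95% interval of -0.09 to 0.17 that lies inside the 1.5-fold limits.

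The other 2 probe sets of ACTR2 were far more variable than the brightest. CfaAffx.5751.1.S1_at read 9.66, 9.85 and 9.41 at 0 h, 9.43, 10.02 and 10.03 at 12 h, 9.32, 9.84 and 9.54 at 24 h, and 9.44, 9.52 and 8.37 at 72 h, and its SD within a time was 0.40, against 0.055 for the brightest. Cfa.20888.1.S1_s_at had the lowest reading of its 12 arrays on the same 72 h array, 7.34. The change at 72 h was -0.53 for both (SE 0.27 and 0.28, adjusted p = 0.15 and 0.16), which did not pass the test. These probe sets moved with each other over the 12 arrays (Pearson r = 0.97, a description over arrays that share their normalization) and much less with the brightest (r = 0.30 and 0.32).

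The 3′ minus 5′ reading of the array's actin control, a sign of how far labelling or RNA integrity favours the 3′ end, ran opposite to these 2 probe sets at most times. Within a time, the array with the highest 3′ minus 5′ difference gave the lowest ACTR2 reading at 3 of the 4 times for each of them. The array with the lowest difference gave the highest reading at 4 of 4 times for CfaAffx.5751.1.S1_at and at 3 of 4 for Cfa.20888.1.S1_s_at. The 72 h array with the lowest ACTR2 readings had the highest 3′ minus 5′ difference of all 12, 1.40, where the other 72 h arrays had 1.21 and 0.90. The brightest ACTR2 probe set also read lowest on the array of the highest difference at 0, 12 and 24 h (12.30, 12.33 and 12.30), but not at 72 h. The brightest ARPC5 probe set, picked out after its values were seen, read lowest on such an array at all 4 times (11.80, 12.13, 12.29 and 12.11). The part of the 3′ minus 5′ difference in the readings was not tested.

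**Figure D2:**
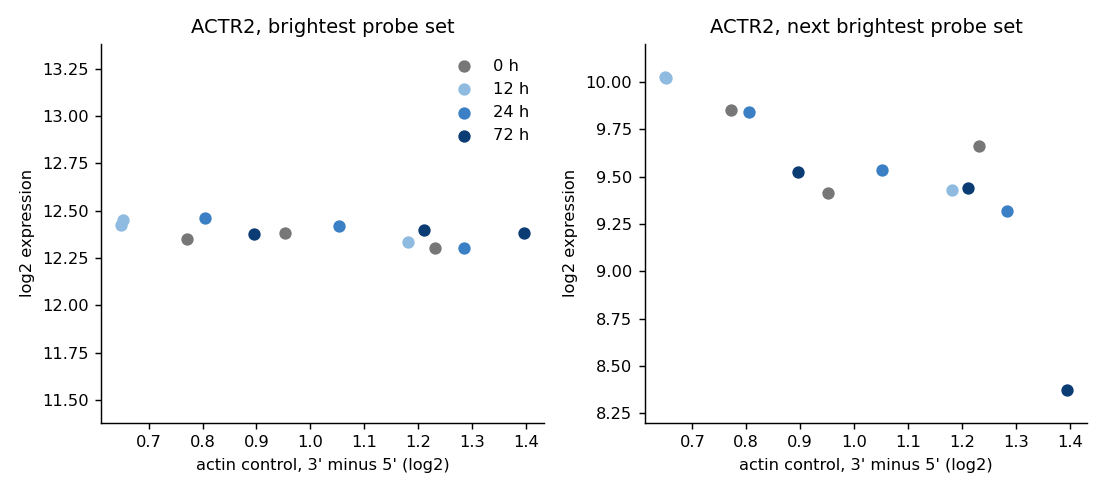
ACTR2 level (log2 expression, vertical axes, which differ in position between the panels) on each of the 12 arrays against the 3′ minus 5′ difference of the array's actin control (log2, horizontal axes), for the brightest probe set on the left and CfaAffx.5751.1.S1_at on the right; colours give the hours with masitinib. The brightest probe set stays between 12.30 and 12.46, while the other runs between 10.03 and 8.37, with its lowest value on the array of the largest difference.

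ACTR3, the other actin-like subunit, was slightly lower in every treated array than in every 0 h array. It read 12.76, 12.77 and 12.75 at 0 h, 12.57, 12.58 and 12.58 at 12 h, 12.52, 12.52 and 12.58 at 24 h, and 12.65, 12.63 and 12.65 at 72 h. The difference was small in size, at most 1.16-fold, and was not called. Its change was -0.19, -0.22 and -0.12 at 12, 24 and 72 h (SE 0.050, adjusted p = 0.013, 0.0032 and 0.076). The spread of ACTR3 within a time was 0.016 (SD), against a median of 0.11 over all tested probe sets. Its SE of 0.050 is wider than this spread alone would give, since the fit draws it towards that of all probe sets.

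ARPC2, a subunit that anchors the complex on the mother filament, read 13.94, 13.84 and 13.84 at 0 h, 13.76, 13.75 and 13.76 at 12 h, 13.89, 13.89 and 13.90 at 24 h, and 14.02, 14.03 and 13.94 at 72 h. The 12 h arrays lay below those at 0 h, and the 24 h and 72 h arrays overlapped them. The changes of -0.12, 0.02 and 0.12 against 0 h did not pass the test (SE 0.055, adjusted p = 0.15, 0.85 and 0.10). The 72 h arrays were all higher than the 12 h arrays, by 0.24 (adjusted p = 0.0048), which was below 1.5-fold.

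ARPC5, a peripheral subunit, was the Arp2/3 member with the widest shift. Its brightest probe set (CfaAffx.20654.1.S1_s_at) read 11.80, 11.89 and 11.82 at 0 h, 12.13, 12.32 and 12.35 at 12 h, 12.29, 12.39 and 12.41 at 24 h, and 12.33, 12.38 and 12.11 at 72 h. All 9 treated arrays were higher than all 3 at 0 h. The change was 0.43, 0.53 and 0.44 at 12, 24 and 72 h (SE 0.082, adjusted p = 0.0013, 0.00016 and 0.00070). At 24 h this was 1.45-fold, so the fold limit and not the p kept ARPC5 from being called at 24 and 72 h.

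The other probe sets of ARPC5 pointed the same way. Cfa.18603.1.S1_at was higher by 0.38, 0.50 and 0.34 (SE 0.066, adjusted p = 0.00061, 4.1e-05 and 0.00087), and its treated and 0 h arrays did not overlap at any time. CfaAffx.20654.1.S1_at, which lies among the dimmest 40% of probe sets, differed by 0.21, 0.41 and 0.16. With the arrays scaled to the poly-A controls the change of the brightest probe set was -0.07 at 24 h and -0.03 at 72 h, so the direction of ARPC5 relative to those controls is not the one above.

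The paralog ARPC5L, which takes the place of ARPC5 in some Arp2/3 complexes, moved the other way and was called. Its log2 change was -0.74, -0.89 and -0.94 at 12, 24 and 72 h (SE 0.067, adjusted p = 2.6e-06, 2.1e-07 and 1.1e-07), and both of its probe sets fell at each time. By the brightest probe set it was the only called gene among the 6 further Arp2/3 subunits and subunit paralogs measured. That is 16.7% at each time, beside falls of 6.30%, 10.0% and 11.0% among all genes. Of the others, ARPC4 changed by -0.54 at 72 h (adjusted p = 8.5e-05, below 1.5-fold), ARPC1A by -0.33 (with 1 of its 5 probe sets called as lower at 24 and 72 h), ARPC1B by 0.26 and ARPC3 by 0.12. The median over the 6 was -0.02, -0.02 and -0.10 at the 3 times.

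WAS, the blood-cell activator of Arp2/3, read 6.41, 6.31 and 6.33 at 0 h, 6.42, 6.59 and 6.63 at 12 h, 6.85, 6.43 and 6.45 at 24 h, and 6.38, 6.22 and 6.47 at 72 h. The 12 h and 24 h arrays lay just above the 0 h arrays and the 72 h arrays overlapped them. The changes were 0.20, 0.23 and 0.01 (SE 0.11, adjusted p = 0.23, 0.13 and 0.98). WAS had the widest spread of the 10 brightest probe sets, an SD of 0.15 within a time, and the 24 h value rested in part on replicate 1, without which it was 0.09.

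The genes that work beside WAS were taken from a list of 19 nucleation promoting factors and partners, of which 17 were measured. Of these 0, 2 and 2 rose over the 3 times (0%, 11.8% and 11.8%, beside 4.26%, 8.01% and 8.73% of all genes). Over the same times 0, 0 and 1 fell (0%, 0% and 5.88%, beside 6.30%, 10.0% and 11.0%). The rises were of NCKAP1, a subunit of the WAVE complex that activates Arp2/3 at the cell edge (1.10 at 72 h, SE 0.053, adjusted p = 3.0e-09), and of its blood-cell paralog NCKAP1L (0.86, SE 0.10, adjusted p = 1.6e-05). ABI2, another WAVE complex subunit, fell by 0.68 at 72 h (SE 0.052, adjusted p = 2.5e-07), in 2 of its 3 probe sets. The WAS paralog WASL differed by 0.77 at 72 h with an adjusted p of 0.032, and WIPF1, which binds and stabilises WAS, by -0.43 (adjusted p = 0.0012), and neither was called.

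CAPG, a gelsolin-like protein that caps filaments without cutting them, was higher on every treated array. It read 11.75, 11.80 and 11.77 at 0 h, 12.82, 12.77 and 12.87 at 12 h, 12.88, 12.84 and 12.88 at 24 h, and 12.43, 12.51 and 12.53 at 72 h. The 72 h arrays lay between those at 0 h and those of the earlier treated times, with no overlap on either side. CAPG was 2.07-fold, 2.14-fold and 1.64-fold higher than at 0 h (log2 change 1.05, 1.10 and 0.71, SE 0.055, adjusted p = 3.0e-08, 5.8e-09 and 2.6e-07). At 72 h against 24 h its change was -0.38 (adjusted p = 0.00034), below 1.5-fold. Scaled to the poly-A controls the 3 changes were 0.75, 0.49 and 0.24, of which the last had an adjusted p of 0.083, so the call of CAPG was lost at 24 and 72 h.

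GSN, gelsolin, the calcium-regulated severing and capping protein, rose more and kept its level. Its brightest probe set (Cfa.1238.3.A1_at) read 9.68, 9.68 and 9.74 at 0 h, 11.05, 10.92 and 11.04 at 12 h, 11.93, 11.87 and 11.89 at 24 h, and 11.80, 11.84 and 11.82 at 72 h. No array of 1 time reached into the range of another. GSN was 2.47-fold, 4.59-fold and 4.35-fold higher than at 0 h (log2 change 1.30, 2.20 and 2.12, SE 0.057, adjusted p = 7.3e-09, 2.7e-11 and 2.4e-11). At 24 h against 12 h it was higher by a further 0.90 (adjusted p = 2.5e-07), whereas 72 h and 24 h differed by -0.08 (95% interval -0.20 to 0.05, adjusted p = 0.44).

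Of the other GSN probe sets, 1 followed the brightest and 1 did not. CfaAffx.6450.1.S1_s_at read 6.70, 6.83 and 6.91 at 0 h, 8.26, 8.16 and 8.23 at 12 h, 9.47, 9.11 and 9.19 at 24 h, and 9.11, 9.00 and 9.31 at 72 h. It rose by 1.40, 2.45 and 2.33 at 12, 24 and 72 h (SE 0.10, adjusted p = 4.4e-07, 1.2e-09 and 1.5e-09). Cfa.17575.1.S1_s_at read 6.17, 6.08 and 6.15 at 0 h, 5.93, 6.31 and 6.23 at 12 h, 6.57, 6.50 and 6.51 at 24 h, and 6.49, 6.67 and 6.37 at 72 h. Its change of 0.02, 0.39 and 0.38 (SE 0.097, adjusted p = 0.90, 0.0055 and 0.0066) did not pass the test, although its 24 h and 72 h arrays lay above those at 0 h. Which transcripts of GSN each probe set matches was not examined.

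Of the other genes of capping and severing, all 15 were measured. The counts were 0, 1 and 1 rises and no fall (6.67% at 24 h and at 72 h, beside 8.01% and 8.73% of all genes), with a median of 0.17, 0.24 and 0.14. The rise at 72 h was of TMOD1, which caps the slow-growing end (0.79, SE 0.11, adjusted p = 4.8e-05), in 1 of its 3 probe sets. SCIN, the closest relative of gelsolin in secretory cells, differed by -0.56 (SE 0.073, adjusted p = 3.0e-05), just below 1.5-fold, and 1 of its 2 probe sets was called as lower. AVIL, advillin of the gelsolin family, rose at 24 h and was at 0.58 at 72 h, with 1 of its 4 probe sets called at 12 h and 1 at 72 h. The capping protein subunits CAPZA1, CAPZA2 and CAPZB differed by -0.07, -0.32 and 0.29 and were not called.

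CFL1, the main non-muscle cofilin, read 12.86, 12.86 and 12.78 at 0 h, 13.19, 13.00 and 13.04 at 12 h, 12.92, 12.96 and 12.95 at 24 h, and 12.85, 12.95 and 12.91 at 72 h. It stood above the 0 h arrays at 12 and 24 h and overlapped them at 72 h. The changes were 0.24, 0.12 and 0.07 (SE 0.063, adjusted p = 0.011, 0.19 and 0.42), at most 1.18-fold. A further probe set (CfaAffx.20469.1.S1_s_at) gave 0.21, 0.16 and -0.02, and Cfa.777.2.S1_at gave -0.00, 0.03 and 0.16. The muscle paralog CFL2 fell by 0.67 at 72 h (SE 0.098, adjusted p = 8.9e-05), and TESK2, a kinase that inactivates cofilin, rose at all 3 times, by 0.59, 0.78 and 0.64 (SE 0.098). In TESK2, 1 of 2 probe sets rose at each time. Of the 14 measured genes of the cofilin cycle and monomer binding, 2, 2 and 1 rose (14.3%, 14.3% and 7.14%, beside 4.26%, 8.01% and 8.73% of all genes). Over the same times 0, 0 and 1 fell (0%, 0% and 7.14%, beside 6.30%, 10.0% and 11.0%).

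CORO1A, the coronin of blood cells, was the only member called as lower, and its brightest probe set was called only at the last time. Its brightest probe set (Cfa.17115.1.S1_s_at) read 12.48, 12.46 and 12.49 at 0 h, 12.61, 12.58 and 12.65 at 12 h, 12.51, 12.38 and 12.40 at 24 h, and 11.48, 11.67 and 11.73 at 72 h. The 72 h arrays lay below all 9 others. CORO1A was 1.80-fold lower at 72 h than at 0 h (log2 change -0.85, SE 0.070, adjusted p = 4.4e-07), where 12 h and 24 h differed from 0 h by 0.13 and -0.05 (adjusted p = 0.20 and 0.64). Scaled to the poly-A controls the 24 h change was -0.65 and was called. The contrast of 72 h with 24 h, which uses no 0 h array, was -0.80 (adjusted p = 6.5e-06), and that of 72 h with 12 h was -0.99 (adjusted p = 2.8e-07).

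The other CORO1A probe set (Cfa.17115.2.S1_at) already read lower at 24 h, by less than 1.5-fold. It read 7.14, 7.07 and 7.15 at 0 h, 7.03, 7.05 and 7.05 at 12 h, 6.67, 6.59 and 6.89 at 24 h, and 6.51, 6.63 and 6.59 at 72 h. Its difference from 0 h was -0.07, -0.40 and -0.54 (SE 0.075, adjusted p = 0.56, 0.00073 and 5.3e-05), below 1.5-fold at each time. The probe sets thus share the direction at 72 h and differ in the size at 24 h.

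Among 8 measured coronins and branch regulators, 2, 1 and 1 rose over the 3 times (25%, 12.5% and 12.5%, beside 4.26%, 8.01% and 8.73% of all genes). Over the same times 0, 1 and 1 fell (0%, 12.5% and 12.5%, beside 6.30%, 10.0% and 11.0%). CORO1B, a relative of CORO1A found in most cells, rose at 12 h by 0.88 (SE 0.14, adjusted p = 0.00026) and at 72 h differed by 0.34 (adjusted p = 0.068). The rise at 12 h was in 1 of its 2 probe sets. CORO1C differed by -0.43 at 72 h (adjusted p = 0.00030, below 1.5-fold). The glia maturation factors, which take branches off and keep Arp2/3 inactive, went apart. GMFG, the form of blood cells, rose by 0.69, 1.00 and 1.21 (SE 0.054), and GMFB had changes of -0.57, -0.79 and -1.63 (SE 0.079), called at 24 and 72 h. In GMFG, 2 of 3 probe sets rose at each time.

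PARVB, beta-parvin, which links integrin-linked kinase to actin, had the largest change of the 10 genes at 72 h. Its brightest probe set (CfaAffx.2237.1.S1_s_at) read 5.94, 5.94 and 6.01 at 0 h, 7.22, 7.16 and 7.24 at 12 h, 8.23, 7.85 and 8.09 at 24 h, and 8.48, 8.24 and 8.55 at 72 h. Each time stood above the one before it with no overlap. PARVB was 2.37-fold, 4.28-fold and 5.51-fold higher than at 0 h (log2 change 1.25, 2.10 and 2.46, SE 0.099, adjusted p = 8.6e-07, 3.2e-09 and 6.3e-10). The difference between 24 h and 12 h was 0.85 (adjusted p = 5.7e-05), and that between 72 h and 24 h, 0.37, did not pass the rule (adjusted p = 0.020).

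The other PARVB probe set gave the same course. Cfa.21095.1.S1_s_at read 5.524, 5.136 and 5.523 at 0 h, 6.398, 6.463 and 6.659 at 12 h, 7.127, 6.978 and 7.240 at 24 h, and 7.893, 7.512 and 7.660 at 72 h. Its rise was 1.11, 1.72 and 2.29 (SE 0.13, adjusted p = 1.8e-05, 1.7e-07 and 1.0e-08). It differed by 0.61 between 24 h and 12 h (adjusted p = 0.0044) and by 0.57 between 72 h and 24 h (adjusted p = 0.0060). Neither of these was called. The paralogs PARVA and PARVG differed by -0.04 (adjusted p = 0.78) and 0.31 (adjusted p = 0.0080) at 72 h and were not called.

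Some partners of PARVB at adhesion sites were called. Of 14 measured parvin, ILK and adhesion genes, 0, 3 and 3 rose (0%, 21.4% and 21.4%, beside 4.26%, 8.01% and 8.73% of all genes). Over the same times 1, 1 and 0 fell (7.14%, 7.14% and 0%, beside 6.30%, 10.0% and 11.0%). The median was 0.14, 0.30 and 0.35. Whether the list differs from all genes was not tested. At 72 h the rises were of ILK itself (0.64, SE 0.090, adjusted p = 6.0e-05), of TLN1, talin, which couples integrins to actin (0.91, SE 0.074, adjusted p = 3.9e-07), and of FERMT3, the blood-cell kindlin that activates integrins (0.74, SE 0.071, adjusted p = 1.7e-06). At that time 1 of 3 probe sets rose for ILK, 2 of 4 for TLN1 and 1 of 2 for FERMT3. The kindlin FERMT2 fell by 0.68 at 12 h and fell by 1.25 at 24 h (SE 0.078), and at 72 h its difference of -0.55 was below 1.5-fold.

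**Figure D3:**
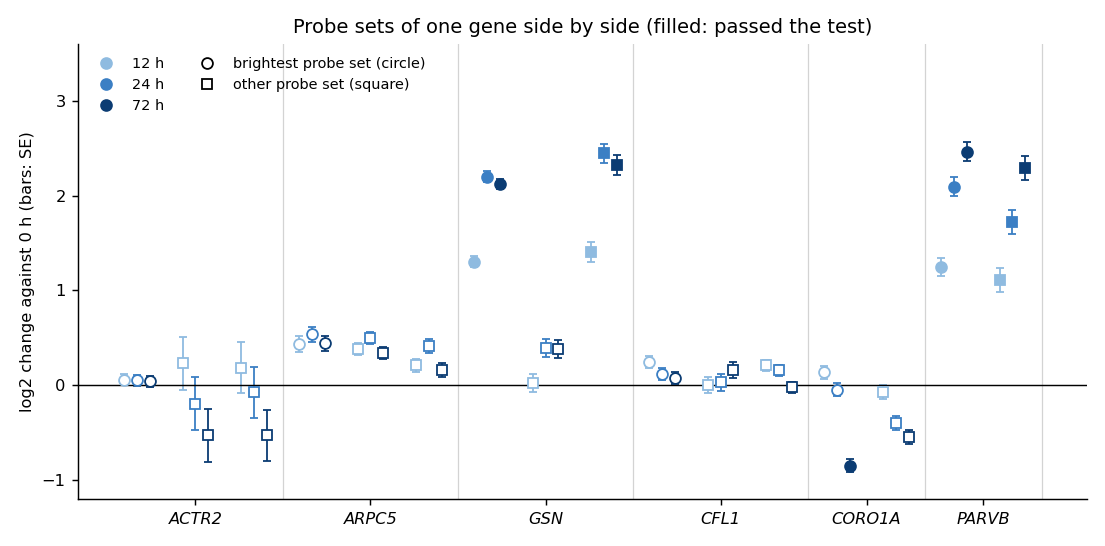
Change against 0 h (log2, vertical axis) of every probe set of the 6 genes that have more than 1 (horizontal axis), with the brightest as circles, the others as squares and bars of 1 SE; shades give 12, 24 and 72 h and filled symbols passed the test. Both PARVB probe sets and 2 of the 3 GSN probe sets lie above 1 at all times, the last GSN probe set below 0.5, and the 2 further ACTR2 probe sets carry the widest bars.

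Leaving out any 1 of the 12 arrays left the counts of called genes at 3, 3 and 4. With the arrays scaled to the poly-A controls GSN and PARVB stayed called at all 3 times (lowest log2 change 0.95 for PARVB at 12 h) and CORO1A at 72 h was -1.32, but ACTR2, WAS and CFL1 changed sign at all 3 times, ARPC2 and ARPC5 at 24 and 72 h, and CORO1A at 12 h. On that scale 3 further falls were called at 24 h, those of ACTR3 (-0.82, adjusted p = 2.0e-06), ARPC2 (-0.59, adjusted p = 0.00025) and CORO1A (-0.65, adjusted p = 6.8e-05), and ACTR3 was also called at 72 h (-0.59, adjusted p = 0.00024).

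**Figure D4:**
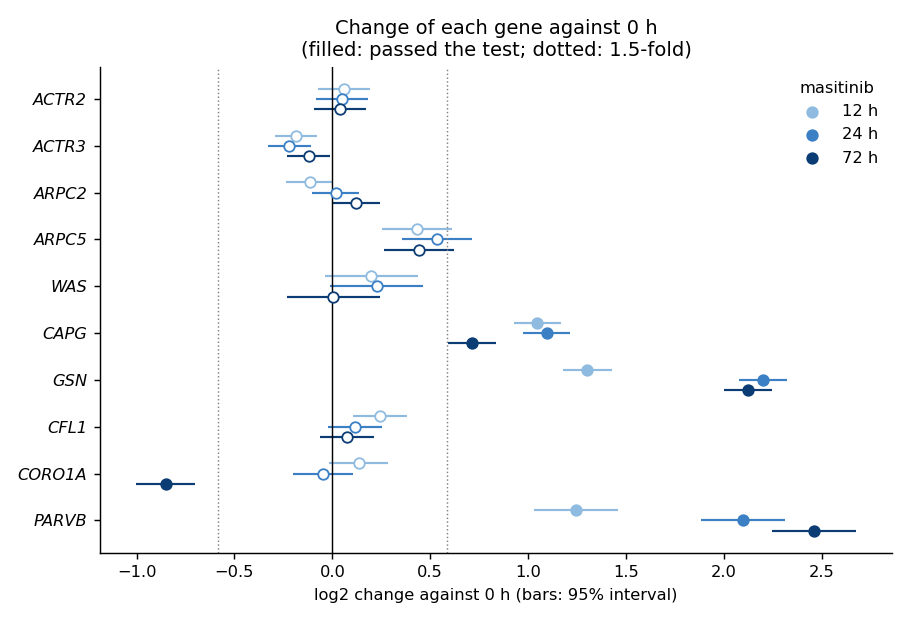
Log2 change of the 10 genes (rows) at 12, 24 and 72 h against 0 h (horizontal axis, brightest probe set), with bars of the 95% interval from the limma fit, filled points for genes that passed the test and dotted lines at 1.5-fold. CAPG, GSN and PARVB lie to the right of the dotted line at all times, CORO1A crosses the left line at 72 h, and ARPC5 stays between 0.43 and 0.53.

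The treated times were also compared with each other, in contrasts that use no 0 h array. At 24 h against 12 h 2 of the 10 genes were called, GSN and PARVB, both higher, beside 4.51% of all genes called in either direction. The other PARVB probe set was not called there (0.61, adjusted p = 0.0044). At 72 h against 24 h CORO1A alone was called, beside 3.78% of all genes. At 72 h against 12 h GSN (0.82, adjusted p = 2.3e-07) and PARVB (1.22, adjusted p = 9.7e-07) were higher and CORO1A was lower, beside 10.3% of all genes, and CAPG differed by -0.33, which was below 1.5-fold (adjusted p = 0.00044). On the values as deposited the members thus differed in timing: CAPG was at its full height by 12 h, GSN by 24 h, PARVB was highest at 72 h, and CORO1A, by its brightest probe set only, moved after 24 h. Scaled to the poly-A controls, no member was called at 24 h against 12 h. On that scale CAPG stood at 0.75, 0.49 and 0.24 against 0 h, and CORO1A was already called at 24 h. The other CORO1A probe set differed by -0.14 between 72 h and 24 h (adjusted p = 0.25), and with the mean over its probe sets CORO1A was not called in that contrast.

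The genes with the closest course were sought for each called member by Pearson r over the 12 arrays, among the brightest probe sets of all genes. These r are descriptions, since the arrays share 4 times and 1 normalization. For CAPG they were ADSS1 (r = 0.996) and TMEM59 (r = 0.994), and for GSN they were CTSF (r = 0.999) and UCKL1 (r = 0.998). For PARVB they were ZADH2 and CMTM6 (r = 0.995 each), and for CORO1A they were SNHG3 (r = 0.988) and ABI2 (r = 0.986). CTSF encodes cathepsin F, a lysosomal protease, and it rose by 1.57, 2.56 and 2.53. ABI2 is the WAVE complex subunit that fell at 72 h above. Between members, GSN and PARVB were the most alike (r = 0.98), and within a time, with the time means taken out, their r was 0.33.

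Beyond the members, 116 of 134 listed genes of actin regulation were measured, in 9 groups by role. Of the 116, 5, 13 and 14 rose and 2, 6 and 7 fell over the 3 times, and 28 were called at some time, none of them in both directions. In percent, 4.31, 11.2 and 12.1 rose and 1.72, 5.17 and 6.03 fell, where the shares of all genes were those given above. The median of the 116 was 0.07, 0.12 and 0.08. On the poly-A scale 31 of these 32 rises kept their sign, the exception being at 24 h, but 0, 0 and 2 were still called.

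Of 16 measured actins and filament-binding proteins 0, 0 and 1 rose and none fell (6.25% at 72 h, beside 8.73% and 11.0% of all genes), and the rise was of the tropomyosin TPM2 at 72 h (0.76, SE 0.14, adjusted p = 0.00068), in 1 of its 4 probe sets. Another tropomyosin, TPM4, differed by -0.54 at 12 h (adjusted p = 4.6e-06), below 1.5-fold by its brightest probe set, with 4 of its 6 probe sets called as lower, and rose by 0.69 at 72 h against 12 h (adjusted p = 4.7e-07). In the same contrast 1 probe set each of the filament bundlers LCP1 and PLS3 was called as lower. TPM4, LCP1 and PLS3 were picked out after their values were seen. The actins ACTB and ACTG1 differed by 0.08 and -0.20 at 72 h (adjusted p = 0.45 and 0.0082), neither beyond 1.5-fold. Of 8 formins and elongation factors 0, 2 and 1 rose (0%, 25% and 12.5%, beside 4.26%, 8.01% and 8.73% of all genes). Over the same times 0, 1 and 1 fell (0%, 12.5% and 12.5%, beside 6.30%, 10.0% and 11.0%). VASP, which feeds monomers to growing ends, rose by 0.91 at 72 h (SE 0.059, adjusted p = 5.4e-08), and its relative ENAH fell by 1.12 (SE 0.068, adjusted p = 2.9e-08). In ENAH, 2 of 5 probe sets fell at 72 h.

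**Figure D5:**
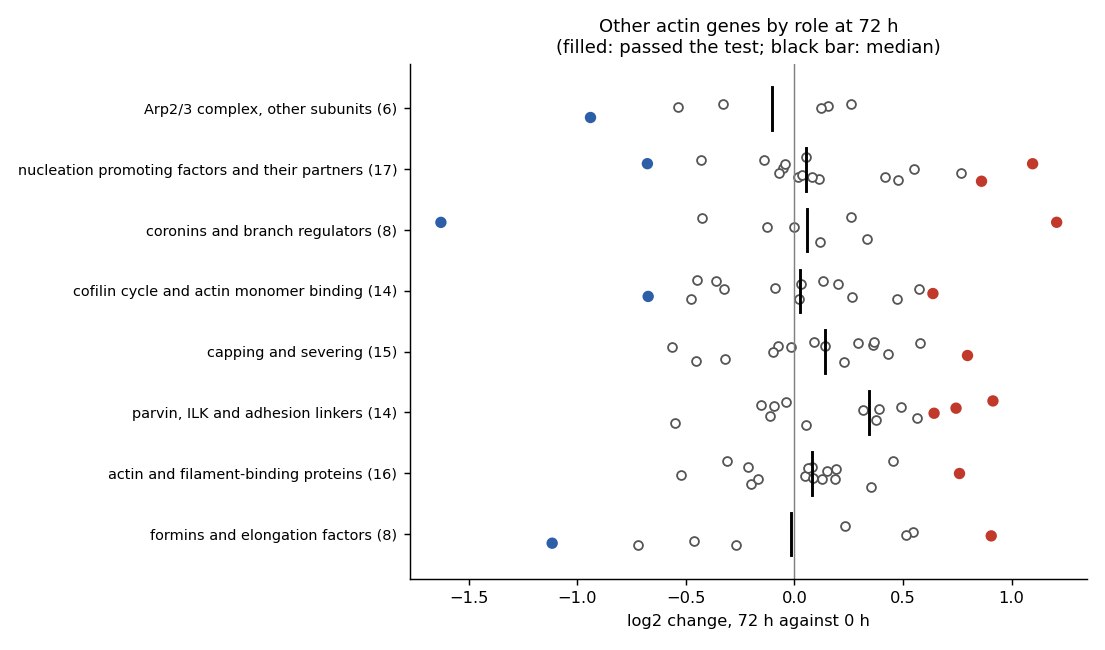
Log2 change at 72 h against 0 h (horizontal axis) of 98 measured actin genes outside the 10 members, in 8 groups by role (rows, with the number of genes); each point is 1 gene by its brightest probe set, red filled points rose, blue filled points fell, open points did not pass the test, and the black bar is the median of the row. The medians lie between -0.10 and 0.35, and GMFB at -1.63 and GMFG at 1.21 are the outermost points.

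Earlier times held called genes that were not called at 72 h, and those named here were picked out after their values were seen. They are CORO1B and FERMT2, given above, SSH3, a cofilin phosphatase (0.65 at 12 h and 0.72 at 24 h), AVIL (0.66 at 24 h), RSU1, a partner of the ILK complex (0.73 at 24 h), and EVL, a relative of VASP (0.78 at 24 h). In SSH3, 1 of 5 probe sets rose at 12 h and 2 of 5 at 24 h. At 24 h, 2 of 4 probe sets rose for AVIL and 2 of 3 for RSU1. The 5 rises at 12 h included those of GMFG, TESK2, SSH3 and CORO1B, and the 2 falls were those of ARPC5L and FERMT2.

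KIT, the receptor that masitinib inhibits, differed by 1.12, 1.31 and 0.90 at 12, 24 and 72 h with an SE of 0.28 and was not called at any of them. Markers of other cell types moved beside the actin genes. At 72 h the changes of the called ones were -1.11 for CD3D, -1.54 for EPCAM, -1.15 for KRT18, 2.54 for KDR, 1.56 for S100A8, 0.64 for CD79A, 0.70 for CSF3R and 0.63 for CDH1. Of these, CD79A and CDH1 lie among the dimmest 40% of probe sets. At 12 h EPCAM (0.81) and KRT18 (0.78) had risen, the opposite of 72 h. S100A8 also rose at 12 h (0.76) and 24 h (1.09), and KDR rose at 24 h (1.68). Of the mast cell markers FCER1A (0.98), CMA1 (0.89), SRGN (0.80) and GATA2 (1.76) rose at 72 h, all of which had also risen at 24 h, as had FCER1G (0.65) and HDC (0.75). For some marker groups the range of the mean over the arrays of a time is given here. The mean of the 3 measured neutrophil genes ran from 5.94 to 6.11 at 72 h and from 5.16 to 5.30 at 0 h. That of the 4 endothelial genes ran from 7.32 to 7.35 at 72 h and from 6.54 to 6.63 at 0 h. Of these only KDR was called at 72 h, and CDH5 (0.22), VWF (0.03) and TEK (0.26) were not. The epithelial mean was lower at 72 h, 5.17 to 5.25, against 5.77 to 5.82 at 0 h. The B cell mean overlapped, 4.62 to 4.87 at 72 h and 4.62 to 4.85 at 0 h. The part of the cell type markers in the changes of the actin genes was not tested. In bulk RNA such as this, a change in the share of cells and a change in the RNA of each cell cannot be told apart.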

How the data were processed

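The series table as deposited gives each probe set a log2 expression value on every array. According to the methods, the authors processed the scanned arrays in Partek Genomics Suite with its gcRMA workflow (median polish after RMA background correction and a quantile normalization). Partek and RMA are also what the submitters' notes on processing name. Quantile normalization gives all arrays the same distribution, so a shift shared by most transcripts is removed. That the base of the log is 2 was checked against the ratios listed in a supplementary table for 1999 entries at 12 h and 1011 at 24 h (largest relative difference 4.4e-05). Columns of the study's own comparisons were not used otherwise.

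From 43035 probe sets, 111 Affymetrix controls were set apart and 42924 tested in R 4.3.3 with limma 3.58.1 (lmFit and eBayes, all 12 arrays, 1 coefficient per time, no covariate), with Benjamini-Hochberg adjustment over all of them. Symbols came from the platform annotation, which gave 29254 probe sets 1 symbol, 439 several and 13231 none, and 27680 were updated through Entrez identifiers to RefSeq names of UU_Cfam_GSD_1.0. Intervals are 95% intervals of the moderated fit, for each gene alone. Figures were drawn in Python 3.11.15 with numpy 2.4.6, pandas 2.3.3 and matplotlib 3.10.9. On data simulated for 72 h against 0 h over 42924 probe sets, 79% of 100 probe sets changed 2-fold and 98% of 100 changed 4-fold were called, with 0 false calls. No other probe set was changed, and the noise was independent between probe sets. In the real data 8.73% of genes rose and 11.0% fell at 72 h, so these shares need not hold there. Arrays carry no read depth, and the number of arrays, 3 per time, limits the precision. The dimmer ACTR2 probe sets were compared with the 3′ and 5′ readings of the actin control.

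The members and lists were chosen with earlier results of these data known. Named are all members with every probe set, from each role list up to 4 called genes of largest size at 72 h, partners and paralogs of members, KIT and DUSP6, and the 2 genes with the highest r to each called member. Cell type markers were named where called at any of the 3 times. CSF1R, MRC1, VWF, CDH5 and TEK were called at none of them and were named after their values were seen. The genes of 1 of the 9 role lists are counted in the totals but not reported here.

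The alternatives were cyclic loess, scaling to the 36 poly-A control probe sets, a filter on the dimmest 40% of probe sets, the methods' ANOVA with Storey q-values, fits on 2 times only, other thresholds, other probe sets of a gene, a replicate block and leaving out each array. The replicate numbers were checked as pairs: the deviations of 18 pairs of arrays with the same number correlated between -0.33 and 0.41, 5 of them above 0.1, so the numbers were not taken to pair the flasks.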

Additional observations from a re-analysis of the deposited data

Results flagged for a closer look

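These results are listed because the level differed between 2 treated times by a direct limma contrast, in which the drug and the time in culture cannot be told apart, with the adjusted p beside each. At 24 h against 12 h, GSN was higher by 0.90 (adjusted p = 2.5e-07) and PARVB by 0.85 (adjusted p = 5.7e-05) on the log2 scale, and in both genes all 3 arrays at 24 h stood above all 3 at 12 h. In that contrast Cfa.17575.1.S1_s_at of GSN (0.37, adjusted p = 0.018) and the other PARVB probe set (0.61, adjusted p = 0.0044) were not called. Scaled to the poly-A controls, neither gene was called there. At 72 h against 24 h, CORO1A had a log2 change of -0.80 (adjusted p = 6.5e-06), with all 3 arrays at 72 h below all 3 at 24 h. These values are of its brightest probe set. The other CORO1A probe set changed by -0.14 in this contrast (adjusted p = 0.25), with overlapping arrays. At 72 h against 12 h that other probe set changed by -0.47 (adjusted p = 0.00032), below 1.5-fold. At 72 h against 12 h, GSN was higher by 0.82 (adjusted p = 2.3e-07) and PARVB by 1.22 (adjusted p = 9.7e-07), and CORO1A had a log2 change of -0.99 (adjusted p = 2.8e-07).

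The poly-A controls lie outside the main measurement and read higher after treatment. Their mean log2 level over 36 probe sets was above that at 0 h by 0.29 at 12 h, 0.60 at 24 h and 0.47 at 72 h. Scaled to them, the falls among all calls made up 89.5%, 96.3% and 91.0% at 12, 24 and 72 h, where the values as deposited gave 60.9%, 58.8% and 58.9%.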

How the results depend on the processing

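The 10 called changes of the members against 0 h kept their sign in all 22 other settings, and 216 of 220 such values stayed called. The 4 lost were CAPG at 24 h (0.49) and 72 h (0.24) scaled to the poly-A controls, and CAPG (0.71) and CORO1A (-0.85) at 72 h under the 2-fold limit. Part of this tally was fixed in advance. Other thresholds, the ANOVA, the fits on 2 times, the replicate block and the dim filter reuse the same means, so no sign could turn. The looser threshold could lose no call, and leaving out an array of another time leaves a change as it was. CAPG has 1 probe set, so the settings on probe sets could not alter its change. The counts of called members at 12, 24 and 72 h against 0 h, and at 24 h against 12 h, 72 h against 24 h and 72 h against 12 h, were 3, 3, 4, 2, 1 and 3. They stayed so in all 12 fits without 1 array. The replicate numbers were not taken to pair the flasks (4 of 12 arrays correlated best with their own number). Replicate 1 had the highest 3′ minus 5′ actin difference at 0, 12 and 24 h (1.23, 1.18 and 1.28), and replicate 3 at 72 h (1.40). Whether samples of 1 number were handled together was not tested. With the replicate block the counts were again 3, 3, 4, 2, 1 and 3, beside 6, 19 and 21 called genes of the actin lists.

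Scaled to the poly-A controls, 5 members were called at 24 h and 0 at 24 h against 12 h, 47 and 37 genes of the actin lists at 24 and 72 h, and 4517, 14676 and 10061 named probe sets at 12, 24 and 72 h. The sign then turned for ACTR2 (-0.24, -0.55 and -0.43 at 12, 24 and 72 h), WAS (-0.094, -0.38 and -0.47), CFL1 (-0.050, -0.49 and -0.40), ARPC2 at 24 h (-0.59) and 72 h (-0.35), ARPC5 at 24 h (-0.068) and 72 h (-0.030), and CORO1A at 12 h (-0.16), none of them called before. ACTR3 (-0.82), ARPC2 and CORO1A (-0.65) were then called at 24 h and ACTR3 (-0.59) at 72 h. With an adjusted p under 0.05 and any fold, 6 and 5 members were called at 12 and 24 h, 3 at 72 h against 24 h and 5 at 72 h against 12 h, with 47, 65 and 71 list genes and 8958, 11868 and 12531 named probe sets. Above 2-fold, 2 members remained at 72 h and 0, 0 and 1 in the contrasts between treated times, with 0, 1 and 5 list genes and 954, 2278 and 2524 named probe sets.

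With the probe set of largest change, 11 list genes were called at 12 h, and ACTR2 was -0.20 at 24 h and -0.53 at 72 h. With the mean over all probe sets, ACTR2 was -0.075 at 24 h and -0.34 at 72 h, 13 list genes were called at 72 h, and 0 members at 72 h against 24 h. Cyclic loess gave -0.044 for WAS at 72 h. Without 1 array, WAS at 72 h ranged from -0.051 to 0.075 and ARPC2 at 24 h from -0.00032 to 0.050. The rule leaves changes below 1.5-fold uncalled, which does not show that they are absent.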
